A study of Mus musculus with 4 samples.

Results

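The part of the brown fat transcriptome described here is the early B-cell factor (EBF) family with its zinc finger partners: Ebf1, Ebf2, Ebf3, Zfp423 and Zfp521. These 5 genes were picked by symbol from 12165 genes in the authors' deposited table, and all 5 were listed. Brown adipose tissue was taken at 8 weeks of age from wild-type mice (WT, 2 libraries) and from mice labelled Ebf2 KO (2 libraries). All animals had a mixed strain background and were housed on chow at room temperature, and polyA RNA was sequenced. The kind of Ebf2 allele, its parent lines and the sex of the animals are not stated in the labels. Nothing in the labels says that replicates are separate animals, so p-values measure only the spread between these libraries.

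EBF proteins are transcription factors that bind DNA as dimers, on a palindromic site whose core reads CCCNNGGG. EBF1 sets the identity of B lymphocytes and also takes part in fat cell formation, EBF2 is selective for brown over white fat cells and their precursors, and EBF3 is best known from neurons and bone marrow stroma. ZFP423 and ZFP521 are closely related proteins built of many C2H2 zinc fingers, and both bind EBF proteins and change their activity. In mice ZFP423 favours the commitment of fat cell precursors and restrains the thermogenic activity of EBF2 in white fat cells, whereas ZFP521 acts against fat cell formation.

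Of the 5 genes, 3 had entries among RefSeq promoter sequences (GRCm38.p6, 250 bases before to 50 after an annotated start, shown 5′ to 3′ on the gene's strand). Promoters of Ebf1, Ebf3 and Zfp423 are shown because they had entries, with the EBF core where it occurs. Capitals mark a match to CCCNNGGG, which reads the same on both strands. The authors used the mm9 build, so these coordinates do not apply to their files.
Ebf1, chr11:44617850-44618149, plus strand: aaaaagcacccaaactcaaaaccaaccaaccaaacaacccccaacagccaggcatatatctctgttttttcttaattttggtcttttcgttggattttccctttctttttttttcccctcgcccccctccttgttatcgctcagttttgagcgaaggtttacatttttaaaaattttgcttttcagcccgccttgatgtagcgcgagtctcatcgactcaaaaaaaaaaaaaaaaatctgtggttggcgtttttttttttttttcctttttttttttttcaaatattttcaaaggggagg
Ebf3, chr7:137314396-137314695, minus strand: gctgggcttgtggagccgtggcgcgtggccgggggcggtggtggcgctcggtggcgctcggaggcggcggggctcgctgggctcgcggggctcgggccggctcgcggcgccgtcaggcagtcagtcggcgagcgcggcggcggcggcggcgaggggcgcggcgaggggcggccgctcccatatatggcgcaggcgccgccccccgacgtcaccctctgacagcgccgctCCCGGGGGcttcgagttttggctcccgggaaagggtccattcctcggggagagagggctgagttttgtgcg
Zfp423, upstream start, chr8:87959546-87959845, minus strand: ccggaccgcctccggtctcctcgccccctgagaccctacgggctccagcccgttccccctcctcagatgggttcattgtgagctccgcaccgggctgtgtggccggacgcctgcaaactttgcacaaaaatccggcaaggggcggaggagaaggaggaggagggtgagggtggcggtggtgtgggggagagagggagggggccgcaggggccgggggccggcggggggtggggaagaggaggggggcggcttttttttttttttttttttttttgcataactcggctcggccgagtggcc
Zfp423, internal start, chr8:87804390-87804689, minus strand: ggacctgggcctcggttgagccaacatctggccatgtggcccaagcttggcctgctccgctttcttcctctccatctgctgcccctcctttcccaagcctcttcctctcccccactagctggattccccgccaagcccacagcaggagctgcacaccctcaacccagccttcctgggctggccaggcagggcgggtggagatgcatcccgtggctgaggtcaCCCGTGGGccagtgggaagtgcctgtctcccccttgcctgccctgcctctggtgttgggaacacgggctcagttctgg
The Ebf3 promoter held 1 match, CCCGGGGG, which began 21 bases before the annotated start, and the internal Zfp423 promoter held 1 match, CCCGTGGG, 28 bases before its start. No match stood in the upstream Zfp423 promoter or in the Ebf1 promoter shown. A further Ebf1 promoter in the table, chr11:44619978-44620277, also had 0 matches. The same letters occurred in 13.7% of 32851 promoters of the same length and in 18.3% of 11435 promoters of listed genes. A match is a description of letters and not a measured binding site.

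The unit of expression was RPKM, in which a gene's reads are divided by its length and by the library total. The RPKM steps gave library totals of 162782640 to 199678916 reads, and each value of the 5 genes as a whole number of reads. The thinnest value rested on 257 reads (Zfp521 in WT replicate 1), with a counting error of 6.24%. Intervals of this kind cover counting error only. The scale of the libraries touches every result below. Median-ratio size factors computed from RPKM were 0.699 and 0.9 in WT and 1.16 and 1.38 in Ebf2 KO, so the typical gene stood higher in both Ebf2 KO libraries. Of the library totals that RPKM divides by, 42.5% and 44.7% lay in listed genes in WT and 58% and 60.6% in Ebf2 KO. The part of this difference in the shift was not tested. On RPKM 24.4% of all 12165 genes were called higher and 3.54% lower in Ebf2 KO (limma on log2(RPKM + 1), Benjamini-Hochberg adjusted p under 0.05). After each library's RPKM was divided by its size factor, an alternative chosen after seeing the data, these shares were 7.72% and 7.58%. Values below are RPKM unless they are called scaled RPKM. Xist was at 5.05 to 6.19 RPKM in 3 libraries and at 0.0353 in Ebf2 KO replicate 2, so calls of the 5 genes and of the lists that were lost without that library are given.

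Ebf2, the targeted gene, stood at 2.97 and 2.63 RPKM in WT replicates 1 and 2 and at 0.391 and 0.352 RPKM in replicates 1 and 2 of Ebf2 KO. These values came from 3279, 2569, 382 and 317 reads. Both Ebf2 KO values lay below both WT values, which held for 9.3% of all genes on RPKM. The mean fell from 2.80 ± 0.239 to 0.372 ± 0.0276 RPKM (SD, n = 2 each), a 7.53-fold lower level, with a log2 fold change of -1.47 on the log2(RPKM + 1) scale (SE 0.208, limma adjusted p = 0.00536). That scale understates the change of genes near 1 RPKM. The RNA that remained was 14% and 12.6% of the WT mean in Ebf2 KO replicates 1 and 2, so both libraries kept a similar residue. In rank, Ebf2 went from percentile 52.8 and 42.4 of all listed genes in WT to percentile 1.53 and 0.806 in Ebf2 KO. In the authors' deposited table its log2 fold change was -3.56 (edgeR FDR 4.44e-19), rank 39 of all genes by p. Which exons the remaining reads cover cannot be told from 1 value per gene.

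Ebf1 was the most abundant of the 5 genes per length in all 4 libraries. Its level was 6.41 and 4.09 RPKM in WT and 13.9 and 12.7 RPKM in Ebf2 KO. Each of the latter exceeded both WT values, the lowest of them 1.97-fold above the highest WT value, although both values standing higher was the case for 65.4% of all genes on RPKM. The mean rose 2.53-fold on RPKM, with means of 5.25 ± 1.64 and 13.3 ± 0.867 RPKM (SD, n = 2 each; log2 fold change 1.21, SE 0.258, limma adjusted p = 0.0169). The call was lost when 1 Ebf2 KO library was left out (adjusted p = 0.0502 without replicate 1 and 0.0571 without replicate 2) and under every rescaling tried. On scaled RPKM the libraries read 9.16, 4.54, 12 and 9.2 in the same order, so the lower Ebf2 KO library equalled the higher WT library (ratio 1). Scaled, the log2 fold change was 0.62 (adjusted p = 0.23), and it was 0.18 without WT replicate 2 and 1.06 without WT replicate 1. A log2 fold change of 0.66 stood in the authors' deposited table (edgeR FDR 0.211). In rank Ebf1 stood at percentiles 69.4 and 53.6 in WT and 75.2 and 71.7 in Ebf2 KO.

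Ebf3 was at 2.35 and 3.21 RPKM in WT and at 4.21 and 6.2 RPKM in Ebf2 KO. The Ebf2 KO values again lay above the WT values, which held for 65.4% of all genes on RPKM. The spread within each genotype was wide (1.37-fold in WT, 1.47-fold in Ebf2 KO). Its mean was 2.78 ± 0.609 in WT and 5.21 ± 1.41 RPKM in Ebf2 KO (SD, n = 2 each), and the difference did not pass the threshold (log2 fold change 0.71, SE 0.281, limma adjusted p = 0.0904). It did pass without WT replicate 2 (adjusted p = 0.0378). On scaled RPKM the 4 values lay between 3.36 and 4.51, with a log2 fold change of 0.18 (adjusted p = 0.556), and a log2 fold change of 0.27 stood in the authors' deposited table (edgeR FDR 0.594). Its percentile was 47.6 and 47 in WT and 48.7 and 54.4 in Ebf2 KO.

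Zfp423 was at 1.5 and 1.33 RPKM in WT and at 4.15 and 4.72 RPKM in Ebf2 KO. Replicates lay close together (1.13-fold apart in WT, 1.14-fold in Ebf2 KO), and the lowest Ebf2 KO value was 2.76-fold above the highest WT value. A higher level without overlap was the case for 65.4% of all genes on RPKM. The mean rose 3.13-fold on RPKM, with means of 1.41 ± 0.122 and 4.43 ± 0.403 RPKM (SD, n = 2 each; log2 fold change 1.17, SE 0.244, limma adjusted p = 0.016), a call lost without Ebf2 KO replicate 2 (0.11). On scaled RPKM Zfp423 read 2.15 and 1.48 in WT and 3.59 and 3.43 in Ebf2 KO, 1.94-fold higher, with no overlap (31.2% of all genes stood higher without overlap on that scale). The scaled log2 fold change was 0.69 (limma adjusted p = 0.0522), and 0.52 to 0.86 with 1 library left out. By comparison, limma-voom on the recovered reads gave a log2 fold change of 0.99 (adjusted p = 0.0397). The value in the authors' deposited table was 0.98 (edgeR FDR 0.0146). In rank it moved from percentiles 37.3 and 25.2 to 48.4 and 47.

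Zfp521 had the lowest level of the 5 genes in WT, 0.209 and 0.42 RPKM, and stood at 1.05 and 1.5 RPKM in Ebf2 KO. Its mean rose 4.05-fold on RPKM, with 0.315 ± 0.149 in WT and 1.27 ± 0.318 in Ebf2 KO (SD, n = 2 each). The log2 fold change was 0.79 (SE 0.197, limma adjusted p = 0.0268) on the log2(RPKM + 1) scale and 1.76 with a pseudocount of 0.1 (adjusted p = 0.0336). The call was lost without WT replicate 1 (0.072) or without Ebf2 KO replicate 2 (0.15). On scaled RPKM the values were 0.299, 0.467, 0.908 and 1.09, a 2.61-fold higher mean in Ebf2 KO (limma adjusted p = 0.0479), a call lost when any of the 4 libraries was left out (0.0502 to 0.275), and limma-voom gave a log2 fold change of 1.40 (adjusted p = 0.0303). The authors' deposited table had 1.41 (edgeR FDR 0.0129). In rank Zfp521 went from percentiles 3.9 and 4.28 to 15.1 and 17.3.

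**Figure D1:**
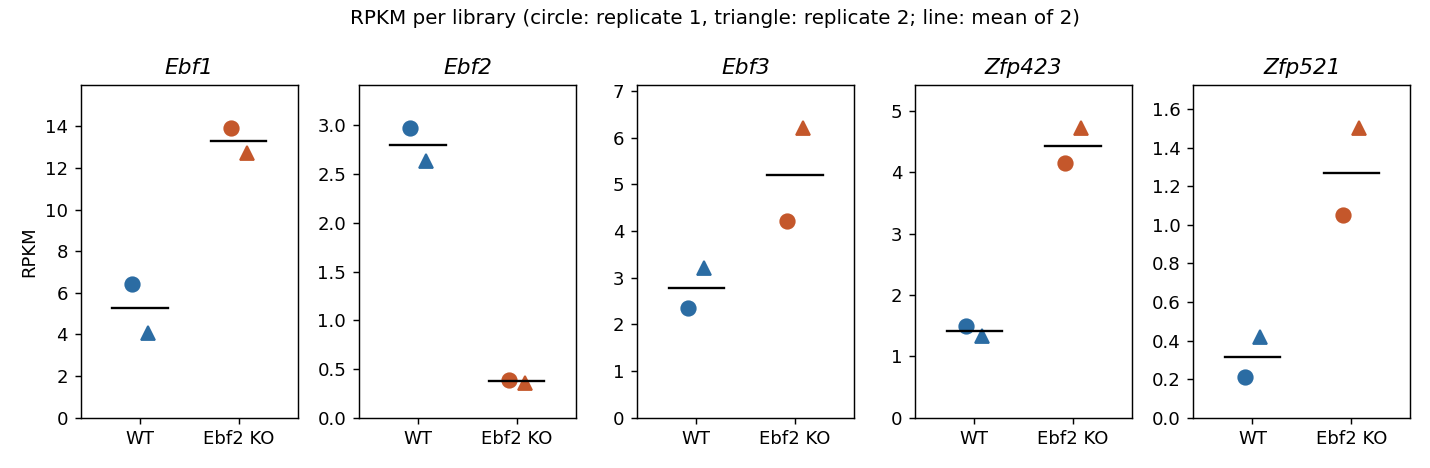
RPKM of each gene (vertical axis, from 0, a separate scale per gene) in the 2 WT and 2 Ebf2 KO libraries, with circles for replicate 1, triangles for replicate 2 and a line at each mean. Ebf2 drops to 0.391 and 0.352 RPKM. For the other 4 genes both Ebf2 KO libraries sit above both WT libraries, as they do for 65.4% of all genes on RPKM.

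On RPKM, then, 3 of the 5 genes were called higher against 24.4% of all genes, and 1 was called lower against 3.54%. On scaled RPKM 1 gene (Zfp521) was called higher against 7.72%. By limma-voom 2 genes (Zfp423 and Zfp521) were called higher against 7.94%, and the same 2 in the authors' deposited table against 10.9%. Ebf2 was called lower in each of these, against 7.58%, 8.4% and 10.5% of all genes. With centring on library medians or quantile normalization, none of the other 4 genes was called higher, against 8.42% and 8.61%, and Ebf2 was called lower, against 10.3% and 8.3%. The plot of log2 fold changes by setting shows that the fall of Ebf2 passed the threshold in all 17 alternatives beside the RPKM fit above. The increase of Ebf1 passed in 6 of these 17, that of Zfp423 in 10 of 17 and that of Zfp521 in 8 of 16, and no alternative turned the direction of any of the 5 genes.

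**Figure D2:**
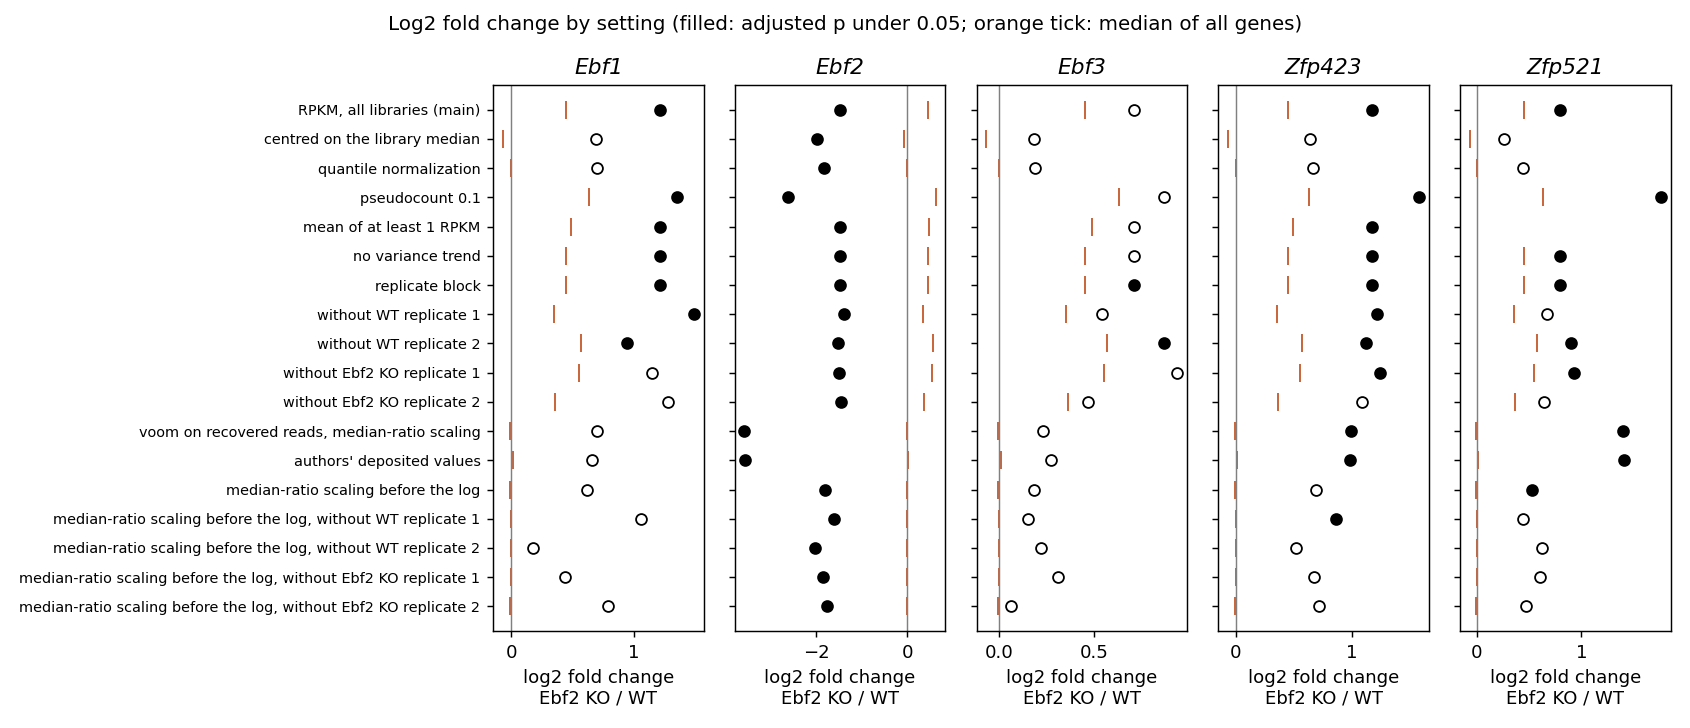
Log2 fold change of Ebf2 KO over WT (horizontal axis, a separate range per gene) for each gene under each way of scaling, fitting or leaving out a library (vertical axis). Filled circles have an adjusted p under 0.05, and orange ticks give the median of all genes, 0.45 on RPKM and 0.01 in the authors' deposited table; Ebf2 is filled throughout.

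Ratios and shares within a library do not depend on how libraries are scaled, so the make-up of EBF transcripts was compared next. With 2 libraries against 2, an exact 2-sided permutation test cannot give a p below 0.333, and the values are therefore a description. The summed RPKM of Ebf1, Ebf2 and Ebf3 was 11.7 and 9.92 in WT and 18.5 and 19.2 in Ebf2 KO. Unlike the shares, such a sum does depend on how libraries are scaled. Ebf2 supplied 25.3% and 26.5% of that sum in WT and 2.12% and 1.83% in Ebf2 KO (exact permutation p = 0.333, the smallest possible). Its share was thus nearly equal within each genotype. Ebf1 supplied 54.7% and 41.2% in WT and 75.1% and 65.9% in Ebf2 KO (exact permutation p = 0.333). A lower share of Ebf2 raises the joint share of Ebf1 and Ebf3 by construction. Ebf3 supplied 20% and 32.3% in WT and 22.8% and 32.3% in Ebf2 KO, so its share overlapped between the genotypes (exact permutation p = 1) and differed more between replicates than between group means. Ebf1 and Ebf3 alone summed to 8.76 and 7.29 RPKM in WT and to 18.1 and 18.9 in Ebf2 KO, which again depends on the scaling. Of the sum without Ebf2, Ebf1 supplied 73.2% and 56% in WT and 76.7% and 67.1% in Ebf2 KO. On that basis its share overlapped between the genotypes (exact permutation p = 0.667).

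**Figure D3:**
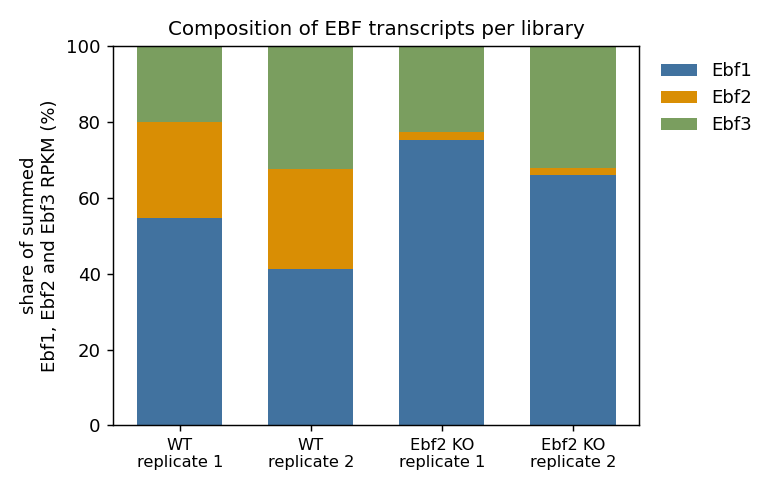
Share of Ebf1, Ebf2 and Ebf3 in their summed RPKM (vertical axis, percent) in each of the 4 libraries. The Ebf2 segment shrinks from 25.3% and 26.5% to 2.12% and 1.83%, while the Ebf3 segment spans 20% to 32.3% in WT and 22.8% to 32.3% in Ebf2 KO.

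All 10 pairs of the 5 genes were compared as log2 ratios of RPKM within a library. Ebf1 was 2.16-fold and 1.55-fold as abundant as Ebf2 in WT and 35.5-fold and 35.9-fold in Ebf2 KO, a change of the log2 ratio by 4.29 (exact permutation p = 0.333). Ebf2 was 1.98-fold as abundant as Zfp423 in each WT library, and Zfp423 was 10.6-fold and 13.4-fold as abundant as Ebf2 in Ebf2 KO (change of -4.56 in the log2 ratio of Ebf2 to Zfp423). The order of Ebf2 and Zfp423 was therefore opposite in the genotypes. Ebf2 is the targeted gene, and its fall moves every ratio to it by construction. Against Zfp521, Ebf2 stood 14.2-fold and 6.26-fold higher in WT, and Zfp521 stood 2.68-fold and 4.26-fold higher in Ebf2 KO. Pairs without Ebf2 changed by at most 1.18 in log2 ratio. The log2 ratio of Ebf1 to Zfp423 was 2.09 and 1.62 in WT and 1.74 and 1.42 in Ebf2 KO, and the groups overlapped (exact permutation p = 0.667). The ratios of Ebf1 to Ebf3, Ebf1 to Zfp521 and Zfp423 to Zfp521 overlapped as well. The ratios of Ebf3 to both zinc finger genes were lower in Ebf2 KO without overlap. Its ratio to Zfp423 was 1.56 and 2.41 in WT and 1.02 and 1.32 in Ebf2 KO, and its ratio to Zfp521 was 11.2 and 7.64 in WT and 4.01 and 4.14 in Ebf2 KO (exact permutation p = 0.333 for each).

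In order of mean RPKM, WT tissue had Ebf1 first, then Ebf2 and Ebf3 with means of 2.80 and 2.78 that do not differ beyond their spread, then Zfp423 and Zfp521. In Ebf2 KO tissue the order was Ebf1, Ebf3, Zfp423, Zfp521 and last Ebf2. Ebf3 stood at 5.21 ± 1.41 and Zfp423 at 4.43 ± 0.403 RPKM (SD, n = 2 each), and their values overlapped across libraries. Within Ebf2 KO replicates 1 and 2 Ebf3 was 1.02-fold and 1.32-fold as abundant as Zfp423. The ratio of Zfp423 to Zfp521 was 7.17 and 3.16 in WT and 3.95 and 3.15 in Ebf2 KO.

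Genes with the most similar pattern were sought by the Euclidean distance between centred log2(RPKM + 1) profiles over the 4 libraries, among genes with a mean level within a factor of 2. Col27a1, a fibrillar collagen, was nearest to Ebf2 (distance 0.185), at 5.12 and 5.09 RPKM in WT and 1.38 and 0.973 in Ebf2 KO, followed by E330011O21Rik (0.306) and Tmco4 (0.317). Slc44a3 was nearest to Ebf1 (0.134) and Ap4b1 to Ebf3 (0.0268). Elmod3 was nearest to Zfp423 (0.0577), and Mcph1, a gene of chromosome condensation, to Zfp521 (0.0151). The search covered 2972 to 4364 candidate genes per member and only 4 libraries, so the distances are a description only.

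The EBF genes and their partners are not made by fat cells alone, and markers of other cell types were summed per library. In bulk tissue fewer cells of a type and less RNA per cell cannot be told apart. All 13 markers of adipocyte precursors and fibroblasts were listed, and 12 of 13 rose on RPKM, where 24.4% of all genes did. On scaled RPKM 5 of 13 rose, against 7.72% of all genes. The counts were 6 (RPKM) and 0 (scaled RPKM) without Ebf2 KO replicate 2, and 11 and 1 without WT replicate 1; scaled, 8 rose without WT replicate 2. Their summed level was 301 and 636 RPKM in WT and 1436 and 2528 in Ebf2 KO, and none was at 0. Per 1000 RPKM of these markers Zfp521 read 0.695 and 0.661 in WT and 0.73 and 0.593 in Ebf2 KO, and the groups overlapped. Zfp423 read 4.99 and 2.09 against 2.89 and 1.87 on the same basis, and Ebf1 21.3 and 6.43 against 9.67 and 5, so both overlapped between the genotypes. Ebf3 read 7.8 and 5.05 against 2.93 and 2.45 and was lower without overlap, and Ebf2 read 9.86 and 4.14 against 0.272 and 0.139. The precursor and fibroblast sum itself stood 4.23-fold higher in Ebf2 KO, which lowers any gene's ratio to it. Col3a1 and Col1a1, the collagens that dominate the sum, weigh heavily in it, and the part of precursor cells in these differences was not tested.

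Per 1000 RPKM of mature fat cell markers, whose sum was 14320 to 19976 RPKM in WT and 33889 to 40214 in Ebf2 KO (8 of 8 listed, 6 of them higher), Ebf1 read 0.321 and 0.285 in WT and 0.345 and 0.373 in Ebf2 KO. On that basis Zfp423 read 0.0752 and 0.0928 against 0.103 and 0.139, and Zfp521 overlapped between the genotypes. Fabp4, at 17436 and 12384 RPKM in WT and 25227 and 22882 in Ebf2 KO, dominates the mature fat cell sum. Pericyte and smooth muscle markers (9 of 9 listed, 4 higher) summed to 85.8 and 132 RPKM in WT and 183 and 200 in Ebf2 KO. Per 1000 RPKM of these, Ebf1 and Ebf3 overlapped between the genotypes, with Ebf3 at 27.3 and 24.4 in WT and 23 and 31 in Ebf2 KO. On the same basis Zfp423 read 17.5 and 10.1 against 22.6 and 23.6 (1.68-fold), and Zfp521 2.44 and 3.19 against 5.73 and 7.5 (2.35-fold), both higher without overlap. Endothelial markers (8 of 8 listed, 0 called, but 4 higher without WT replicate 2) summed to 231 and 335 RPKM in WT and 284 and 303 in Ebf2 KO and overlapped. Per 1000 RPKM of the endothelial sum, Ebf1, Ebf3, Zfp423 and Zfp521 stood 2.27-fold, 1.79-fold, 2.88-fold and 4-fold higher in Ebf2 KO, each without overlap (exact permutation p = 0.333). That sum differed only 1.04-fold between the genotypes, so this basis stays close to RPKM, where 65.4% of all genes stood higher without overlap. Cldn5, at 157 and 214 RPKM in WT and 175 and 182 in Ebf2 KO, weighs heavily in the endothelial sum. Macrophage markers (7 of 8 listed, 5 higher) summed to 42.8 and 92.8 RPKM in WT and 240 and 217 in Ebf2 KO, and skeletal muscle markers (11 of 11 listed, 9 higher) to 1021 and 2628 in WT and 9595 and 10479 in Ebf2 KO. Per 1000 RPKM of the muscle sum all 5 genes were lower in Ebf2 KO without overlap, Ebf1 with 6.28 and 1.56 against 1.45 and 1.21. The muscle sum itself stood 5.5-fold higher in Ebf2 KO, which lowers any gene's ratio to it. For none of these marker sums was the share of all genes without overlap computed. Schwann cell and neuron markers (6 of 9 listed, 3 higher and 1 lower) summed to 27.6 and 64.6 RPKM in WT and 73.6 and 180 in Ebf2 KO, and 0 of 7 cartilage and bone markers were listed. The counts of higher markers above are on RPKM, where 24.4% of all genes were called higher. On scaled RPKM, against 7.72% of all genes, 2 mature fat cell, 0 pericyte and smooth muscle, 5 macrophage, 5 skeletal muscle and 1 Schwann cell and neuron markers were higher. The skeletal muscle count on scaled RPKM was 0 without WT replicate 1 or either Ebf2 KO library and 10 without WT replicate 2, and the macrophage count was 0 to 4 without 1 library. On scaled RPKM the Schwann cell and neuron count was 0 to 5 without 1 library. Without Ebf2 KO replicate 2 the RPKM counts were 4 mature fat cell, 0 pericyte and smooth muscle, 3 macrophage, 8 skeletal muscle and 0 Schwann cell and neuron markers. The RPKM count of pericyte and smooth muscle markers was 1 without WT replicate 1 and also without Ebf2 KO replicate 1. The Schwann cell and neuron count on RPKM was 5 without WT replicate 2. These cell types' part in the changes of the 5 genes was not tested.

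B cells are a well known source of Ebf1 RNA. Of 8 B cell markers 2 were listed, Cd79a and Cd79b, the signalling chains of the B cell receptor, with a summed level of 0.397 and 1.7 RPKM in WT and 1.66 and 2.08 in Ebf2 KO. The ratio of Ebf1 to that sum was 16.1 and 2.4 in WT and 8.34 and 6.09 in Ebf2 KO, and the groups overlapped. That sum rests on 2 genes of low level, and the part of B cells in the Ebf1 RNA was not tested.

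The tissue was checked against brown fat markers, all 6 of which were listed. Ucp1, the uncoupling protein of brown fat, was at 5018 and 5733 RPKM in WT and at 7.39 and 2.86 in Ebf2 KO, so the Ebf2 KO libraries carry little of the marker that defines the labelled tissue.

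The last comparison set the 5 genes beside lists of genes that work with them, drawn up with earlier results of these data known, so that their direction is not independent evidence. All genes together had a median log2 fold change of 0.45 on RPKM, which is the level against which each list is read. Of 16 partners of EBF2 in brown fat 15 were listed, of which 3 rose and 0 fell on RPKM, where 24.4% of all genes rose and 3.54% fell, with a median log2 fold change of 0.43. Cebpa, a master regulator of fat cell formation, rose from 42 and 38 RPKM in WT to 236 and 165 in Ebf2 KO (5.02-fold, limma adjusted p = 0.00221, and 0.0303 scaled). The scaled call was lost when any of the 4 libraries was left out. Arid1a, a subunit of the BAF remodelling complex, and Nfia, a nuclear factor that acts with EBF2 in brown fat, rose 2.44-fold and 1.86-fold, and both calls were lost on scaled RPKM (adjusted p = 0.112 and 0.569). On scaled RPKM Cebpa was higher and 2 partners were lower, against 7.72% of all genes higher and 7.58% lower. The 2 were Pparg, the master regulator of fat cells, and Cebpb, named after their values were seen (limma adjusted p = 0.0227 and 0.0451). Without Ebf2 KO replicate 2 neither of these scaled falls was called. On RPKM the number of partners that rose was 1 without either Ebf2 KO library in turn and 5 without WT replicate 2, and up to 2 fell. In the authors' deposited values Cebpa was higher and 3 partners were lower, against 10.9% and 10.5% of all genes. The 3 were Pparg (log2 fold change -1.34, edgeR FDR 0.000997), Cebpb (-1.52, FDR 0.00302) and Med1 (-0.86, FDR 0.018). Med1 was named after its values were seen. Centring on library medians gave 1 higher and 4 lower, and quantile normalization and limma-voom each gave 1 higher and 3 lower. Prdm16, a brown fat coregulator, stood at 0.546 and 0.556 RPKM in WT and 0.495 and 0.449 in Ebf2 KO (limma adjusted p = 0.72).

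Of 16 brown fat genes that EBF2 is known to occupy or activate, 16 were listed and 15 fell, on RPKM as on scaled RPKM (against 3.54% and 7.58% of all genes), with a median log2 fold change of -3.51 on RPKM. Without Ebf2 KO replicate 2, 14 fell. Beside Ucp1, the smallest p belonged to Cpt1b, the muscle-type carnitine palmitoyltransferase (20.5-fold lower), Gyk, glycerol kinase (42.6-fold lower), and Otop1, a proton channel (161-fold lower). Prdm16 was the member that did not pass. RefSeq promoters were found for 10 of these genes, and 1 of the 10, Ppara, held the EBF core, against 21.5% of 8951 listed genes with a promoter. The Ppara promoter is shown as the only match in this list, with the core in capitals.
Ppara, chr15:85735526-85735825, plus strand: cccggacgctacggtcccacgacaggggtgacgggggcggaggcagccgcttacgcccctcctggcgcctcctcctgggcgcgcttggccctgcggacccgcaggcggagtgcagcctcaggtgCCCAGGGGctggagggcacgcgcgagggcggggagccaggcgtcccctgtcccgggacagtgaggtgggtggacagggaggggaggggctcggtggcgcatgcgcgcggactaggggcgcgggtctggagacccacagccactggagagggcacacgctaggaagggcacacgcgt
Ppara itself, a nuclear receptor that drives fatty acid oxidation, went from 5.7 and 5.58 RPKM in WT to 1.45 and 1.13 in Ebf2 KO (4.38-fold lower, limma adjusted p = 0.00732).

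ZFP423 acts with SMAD proteins downstream of bone morphogenetic proteins (BMPs), so that pathway was listed too. Of 20 genes 17 were listed, of which 7 rose and 0 fell on RPKM (median log2 fold change 0.74), against 24.4% and 3.54% of all genes, but 3 rose and 1 fell on scaled RPKM, against 7.72% and 7.58%. With 1 library left out, 1 or 2 rose on scaled RPKM. The 1 that fell was the ligand gene Bmp6, named after its values were seen (adjusted p = 0.0191 scaled). Its scaled call was lost without Ebf2 KO replicate 1 and also without Ebf2 KO replicate 2. On RPKM 3 rose without WT replicate 1 and 1 without Ebf2 KO replicate 2. Among ligands, Bmp7 rose from 0.0901 and 0.231 RPKM to 2 and 2.33 RPKM (13.5-fold, limma adjusted p = 0.00451, and 0.00498 scaled). Of the receptors, Bmpr1a rose 3.27-fold (adjusted p = 0.0113, and 0.0445 scaled) and Acvr1 2.87-fold (adjusted p = 0.0323, and 0.0752 scaled). Nog, which encodes the BMP antagonist noggin, rose 4.39-fold, with means of 0.443 ± 0.0815 and 1.95 ± 0.6 RPKM (SD, n = 2 each; adjusted p = 0.0185, and 0.027 scaled). The SMAD targets Id1 and Id3, named after their values were seen, are given too. Id1 stood at 69.9 and 102 RPKM in WT and 108 and 75.6 in Ebf2 KO, where the groups overlapped. Id3 stood at 44.3 and 66.2 RPKM in WT and 110 and 93.4 in Ebf2 KO and was 1 of the 7 that rose (1.84-fold, limma adjusted p = 0.0349, and 0.641 scaled).

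ZFP423 and ZFP521 recruit the NuRD corepressor, a nucleosome remodelling and deacetylase complex. All 13 subunit genes were listed, and 4 rose and 0 fell on RPKM, with a median log2 fold change of 0.52. The share that rose lay near the 24.4% of all genes. These were Rbbp4 (1.84-fold), Hdac2 (1.68-fold), Mbd3 (1.65-fold) and Rbbp7 (1.66-fold), and none passed on scaled RPKM, where 0 rose and 1 fell. The fall on scaled RPKM was that of Gatad2b, named after its values were seen (adjusted p = 0.0389). That call was lost when any 1 library was left out. Leaving out WT replicate 1 or either Ebf2 KO library left 0 subunits higher on RPKM, and leaving out WT replicate 2 gave 8.

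Of 12 B lineage genes that EBF1 activates, 3 were listed. Vpreb3, which encodes a protein associated with the precursor B cell receptor, fell from 2.15 and 2.91 RPKM in WT to 0.593 and 0.378 in Ebf2 KO (5.22-fold, limma adjusted p = 0.0108, and 0.00313 scaled), a call lost on RPKM without Ebf2 KO replicate 2. Cd79a and Cd79b did not pass (adjusted p = 0.665 and 0.12).

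**Figure D4:**
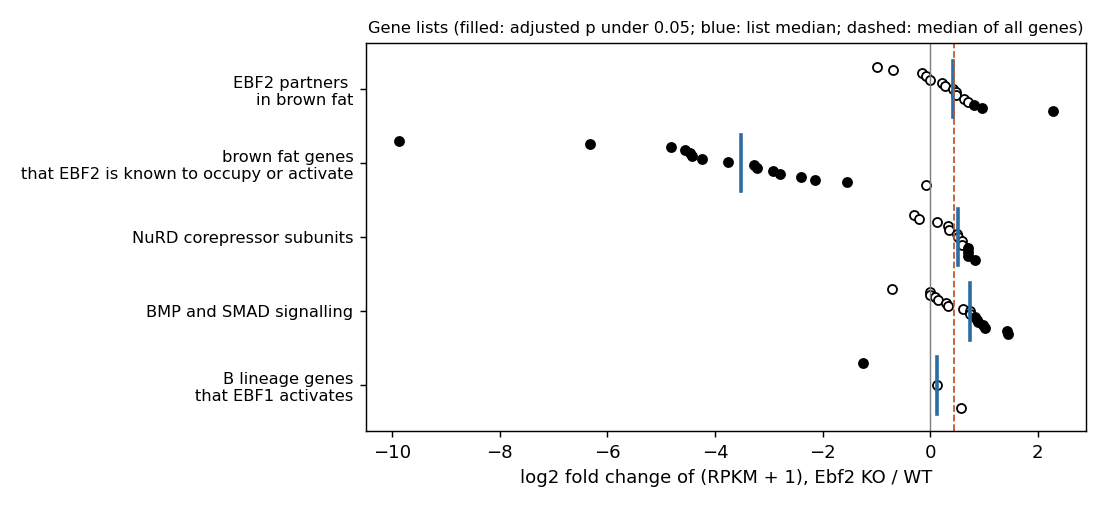
Log2 fold change of (RPKM + 1), Ebf2 KO over WT (horizontal axis), of each listed gene in the 5 gene lists (vertical axis), filled where the adjusted p was under 0.05. Blue lines are list medians and the dashed line is the median of all genes at 0.45; the brown fat list, with a median of -3.51, lies far to the left, and the partner and NuRD medians lie near the dashed line.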

How the data were processed

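Per the submitters' processing notes, the authors used STAR for alignment and edgeR for the test, on the mm9 build; versions, counting tool, annotation and strandedness are not stated there. Per the file headers, the deposited table holds an RPKM per library, mean RPKM per genotype, and the authors' log2 fold change, average log2 CPM, p-value and FDR. Its lowest per-gene maximum was 0.502 RPKM, and the FDR matched a Benjamini-Hochberg adjustment of the listed p-values. Log2 ratios of mean RPKM were a median of 0.637 above the deposited log2 fold changes.

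Members, gene lists and tests were chosen with earlier results of these data known. Log2(RPKM + 1) of the 12165 genes in 4 libraries entered limma 3.58.1 (R 4.3.3, trended prior variance) with genotype as the term; p-values were adjusted over all genes (threshold 0.05). Whole reads were recovered from RPKM steps with totals shared by 175 or 176 of 183 microRNA genes of known length (12165 genes whole within 1e-06 reads); a factor common to all of a gene's reads would be missed, but recovered lengths of the 5 genes were 0.89 to 0.974 of GENCODE M21 exon lengths. On simulated data (replicate variation 20%, no shift between groups) the fit called 50 of 50 genes at log2 changes of 2 and of -2, 28 of 50 at 1, 26 of 50 at -1 and 10 of 11965 unchanged genes. Within-library shares used exact permutation tests (scipy 1.17.1). Named genes were the 5 members, the 3 genes nearest to each in pattern (not all are printed), up to 4 genes per pathway list with the smallest p past the threshold, and the 2 most abundant genes per marker list. Some markers named by that rule are given only within their sums. Other scalings, a pseudocount of 0.1, a minimum mean of 1 RPKM, no trend, a replicate block and leaving out each library were tried.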

Additional observations from a re-analysis of the deposited data

How the results depend on the processing

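Ebf2 was lower under every alternative run, with log2 fold changes from -3.58 to -1.40. Ebf1 lost its call with centring on library medians (0.69), quantile normalization (0.70), limma-voom on recovered reads (0.70), the authors' deposited values (0.66) and median-ratio scaling (0.62). Zfp423 lost its call with centring (0.64), quantile normalization (0.66) and median-ratio scaling (0.69), and Zfp521 with centring (0.26) and quantile normalization (0.44). Zfp521 had a mean below 1 RPKM and gave no value under that filter. Leaving out 1 library, with the lone library assumed to vary like the other genotype's pair, gave log2 fold changes of 0.94 to 1.49 for Ebf1, 0.47 to 0.94 for Ebf3, 1.09 to 1.24 for Zfp423 and 0.64 to 0.93 for Zfp521. With median-ratio scaling as well, leaving out WT replicates 1 and 2 and Ebf2 KO replicates 1 and 2 in turn gave 1.06, 0.18, 0.44 and 0.79 for Ebf1, 0.86, 0.52, 0.67 and 0.72 for Zfp423, and 0.44, 0.62, 0.60 and 0.47 for Zfp521, and 0.06 to 0.31 for Ebf3. The replicate number as a block brought Ebf3 (0.71) past the threshold (limma adjusted p = 0.00917), and the counts of higher and lower genes to 6325 and 746. Deviations of same-numbered libraries correlated at 0.348 across genes, but with 2 pairs the libraries share only a number. Over all genes, RPKM gave 2971 higher and 431 lower calls, centring 1024 and 1253, quantile normalization 1048 and 1010, limma-voom 966 and 1022, the values in the authors' deposited table gave 1325 and 1277, and median-ratio scaling 939 and 922. Without 1 library the counts were 810 to 4477 and 166 to 561 on RPKM, and 398, 1048, 459 and 308 higher and 218 to 1060 lower after median-ratio scaling, in the order above. The causes were not tested, other than that each rescaling lowers the Ebf2 KO values by construction. Without 1 library, the share of Ebf3 changed by -4.78 to 7.52 percentage points between genotypes, and the log2 ratios of Ebf1 to Ebf3, Ebf1 to Zfp521 and Zfp423 to Zfp521 by -0.07 to 1.02, -1.54 to 0.12 and -1.02 to 0.16.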
